A study of Mus musculus with 2 samples.

Results

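The autophagy machinery genes are the genes whose proteins build the autophagosome, mark and carry its cargo, and switch these genes on. They were examined for binding of NRF1 (nuclear respiratory factor 1) in cells of the mouse line CH12.LX, which came from a B-cell lymphoma of strain B10.H-2aH-4bp/Wts and is labelled female. They were chosen by symbol: every protein-coding gene named Atg with a number or beginning with Gabarap or Map1lc3, and 19 further named genes. This gave 42 genes of 21318 protein-coding genes with a start site on chromosomes 1 to 19 and X. The data are chromatin immunoprecipitation and sequencing (ChIP-seq) peak lists from 2 biological replicate libraries made with an antibody to NRF1. The labels name no treatment, and the libraries form 1 group. With nothing to compare them to, no p-value was computed, and the control library was not analysed here. No RNA was measured, so the cell type could not be checked against its markers and a peak says nothing of how much of a gene is made.

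Autophagy delivers cytoplasm, damaged organelles and protein aggregates to the lysosome. The ULK kinase complex starts it, the class III PI3-kinase complex makes the lipid PI3P, WIPI proteins read that lipid, and ATG2 and ATG9 supply and rearrange membrane. A pair of ubiquitin-like conjugation systems then attaches the ATG8 proteins (LC3 and GABARAP families) to the membrane, where cargo receptors dock, and the transcription factors TFEB and TFE3 activate autophagy and lysosome genes through CACGTG elements. NRF1 binds a GC-rich palindromic sequence in promoters and is known above all for nuclear genes of mitochondrial proteins. In B cells, autophagy is known for its part in the survival of plasma cells and memory cells and in antigen handling.

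The sequences below show that, where the 10-base NRF1 consensus is matched in these promoters, the match is mostly an imperfect one. The match is in capitals with 10 flanking bases on each side, written 5′ to 3′ on the strand of the gene, from the RefSeq promoter windows of GRCm38.p6 (mm10). Only Bnip3 (chr7:138909607-138909636) holds the exact consensus in its window. Atg4d (chr9:21265188-21265223) holds a pair of overlapping matches with up to 1 mismatch from the palindromic form. The other genes shown are those of high signal with such a match near the summit: Tax1bp1 (chr6:52713681-52713710), Atg10 (chr13:91224049-91224078), Pink1 (chr4:138326287-138326316), Map1lc3b (chr8:121590311-121590340) and Wipi2 (chr5:142629396-142629425). Wipi2 held a further such match, not shown, 100 bp from the summit (chr5:142629535-142629564). Bnip3, Atg10 and Pink1 lie on the minus strand and the others on the plus strand.
Bnip3: gcccatgccgGCGCACGCGCcgcacgtgcc
Atg4d: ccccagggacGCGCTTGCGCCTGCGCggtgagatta
Tax1bp1: tgtcgccgcaGAGCATGCGCagcagcagag
Atg10: cagccccactGCGCATGCTCaccgcagcgc
Pink1: accgccccccGCGCTTGCGCacaggcgccg
Map1lc3b: gctggcgtagGCGCAGGCGCatggcttggg
Wipi2: tctccgccacGCGCAGGCGCacccaccagc

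A gene was called occupied when a peak of the authors' optimal set had its summit within 1000 bp of the gene's start. The authors selected the optimal set by irreproducible discovery rate, and a peak in it need not rank high in both replicates. Of the 42 autophagy genes, 29 were occupied (69.0%, 95% Wilson interval 54.0 to 80.9, counting error only), where 36.8% of all protein-coding genes were. The signal of a peak is the authors' value, on 1 scale within a list. The strongest promoter peak of each occupied autophagy gene had a median signal of 201 (quartiles 61.2 and 493, range 19.3 to 642). Over all 7838 occupied genes the median was 85.5 (quartiles 36.0 and 418). Of the 29 genes, 25 had a peak in the upper 50% of the optimal set by signal, at or above 38.1 (86.2%, against 73.2% of all occupied genes). With unoccupied genes counted too, this is 59.5% of the 42 genes against 26.9% of all genes.

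Promoter type moved with occupancy, and its part in the share above was not tested beyond the counts given here. A CpG-rich promoter, here one with GC above 50% and a CpG observed/expected ratio above 0.6 around the start, was present in 33 of the 42 genes (78.6%) and in 46.6% of all genes. Among the CpG-rich autophagy genes 26 of 33 were occupied (78.8%), against 63.7% of CpG-rich genes in general. Of the 9 CpG-poor ones 3 were occupied, namely Rb1cc1, Atg4b and Atg7, where 14.9% of CpG-poor genes were. The class was taken on mm9, at an annotated start 8406 bp from the nearest mm9 peak for Rb1cc1, 3268 bp for Atg4b and 203399 bp for Atg7, so for none of the 3 is it known to describe the DNA under the peak. The same limit holds for some occupied genes classed as CpG-rich. That distance was 13874 bp for Becn1, 33576 bp for Atg2b and 143909 bp for Atg12.

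**Figure D1:**
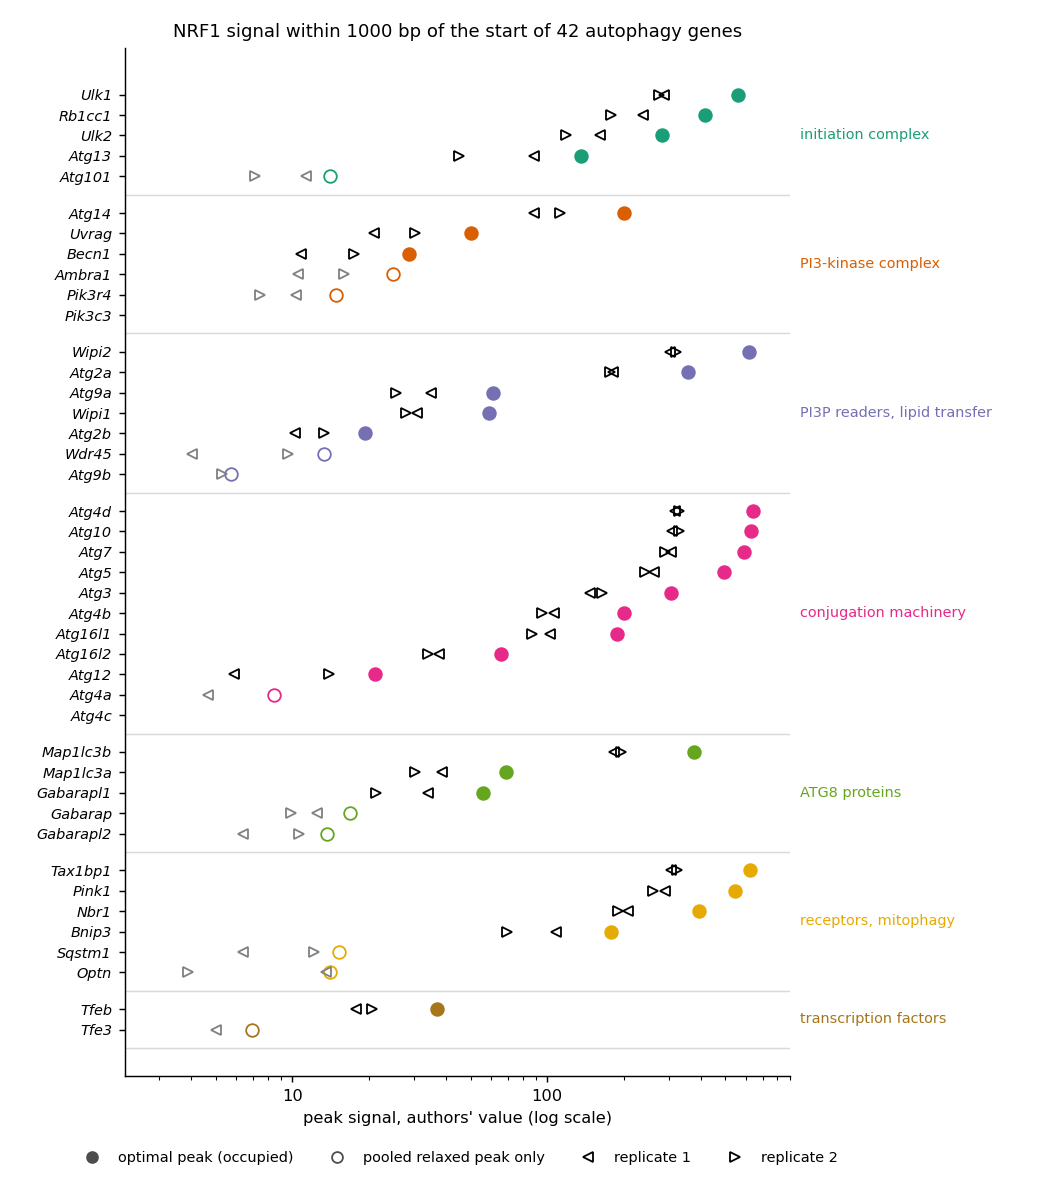
NRF1 peak signal (log scale) at each of the 42 autophagy genes, grouped by role. Filled circles are optimal peaks, open circles are pooled relaxed peaks of genes without an optimal peak, triangles are the replicates on their own lists. Signals of occupied genes run from 19.3 to 642, and Pik3c3 and Atg4c have no peak of any mm10 list within 1000 bp.

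The initiation complex was occupied at 4 of its 5 genes, with a median signal of 348. Ulk1, the kinase that starts autophagy, had a peak of 563 (chr5:110809939-110810280, mm10) with its summit 11 bp inside the gene. In the replicates it measured 288 and 275 (282 ± 9.40, SD, n = 2). Ulk2, its paralogue, had a peak of 281 with 161 in replicate 1 and 118 in replicate 2, so the kinase pair differed by more than the replicates did. Rb1cc1, which encodes the scaffold FIP200, reached 415 (chr1:6214461-6214739), with 237 and 178 in the replicates (208 ± 41.7, SD, n = 2) and the summit 30 bp upstream. Atg13, the adaptor that ties the kinase to the scaffold, had a peak of 136 that differed between replicates by a factor of 1.97, at 88.8 and 45.1. Atg101, the partner of ATG13, was unoccupied. Its strongest relaxed peak near the start measured 14.0 in the pooled list, 11.3 in replicate 1 and 7.11 in replicate 2.

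The PI3-kinase complex was occupied at 3 of 6 genes, with lower signal (median 50.1). Atg14, the subunit that directs the complex to autophagosome sites, carried the strongest peak of the group at 200 (chr14:47568479-47568696), with 88.8 and 112 in the replicates (100 ± 16.5, SD, n = 2). Uvrag, the alternative subunit for endosomes, had a peak of 50.1, with 21.0 and 30.2 in the replicates. Becn1, the Beclin 1 scaffold, had one of the weakest peaks of all at 28.6 (chr11:101302150-101302493), with 10.8 and 17.4. The catalytic subunit gene Pik3c3 and the regulatory subunit gene Pik3r4 were unoccupied, as was Ambra1, which encodes a regulator of Beclin 1. Pik3r4 had 14.8 in the pooled relaxed list, 10.3 in replicate 1 and 7.45 in replicate 2.

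Pik3c3 depended on the annotated start. It had no peak of any mm10 list within 1000 bp of its RefSeq start, and an optimal peak of 503 lay 7176 bp inside the gene. In the mm9 peak set a peak stood 26 bp inside a GENCODE start of Pik3c3. No coordinate was converted between builds, so whether these are the same peak was not tested. Ambra1 lay close to the threshold: the pooled relaxed list had a peak of 24.8 at 30 bp from its start, with 10.5 in replicate 1 and 15.9 in replicate 2. A summit of the conservative set, the authors' smaller selection (15936 peaks against 17547), lay within 1000 bp of the start. So did a top peak of each replicate, but none of the optimal set. Whether these belong to 1 peak was not tested.

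Among the PI3P readers and the lipid-transfer genes 5 of 7 were occupied, over a wide range (median 61.2). Wipi2, the reader that recruits the conjugation machinery, had a peak of 618 (chr5:142629201-142629703), with 302 and 319 in the replicates (310 ± 11.6, SD, n = 2). Wipi1, its paralogue, had a peak of only 59.3, with 30.8 and 28.0. The third reader in the list, Wdr45, was unoccupied, with a relaxed peak of 13.3 in the pooled list, 4.02 in replicate 1 and 9.58 in replicate 2. The same spread between paralogues was seen at the lipid-transfer genes. Atg2a reached 357 (chr19:6241322-6241626), with 182 and 177 in the replicates (180 ± 3.21, SD, n = 2), while Atg2b had the lowest signal of the occupied genes at 19.3 (chr12:105685175-105685518), with 10.2 and 13.3. Atg9a, the lipid scramblase, had a peak of 61.2 with 35.1 and 25.6. Its paralogue Atg9b, with a CpG-poor promoter, was unoccupied and had a relaxed peak of 5.73 in the pooled list, none in replicate 1 and 5.31 in replicate 2.

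The conjugation machinery was occupied at 9 of 11 genes (median 305). Atg4d, a protease that trims and recycles ATG8 proteins, had the highest signal of the 42 genes at 642 (chr9:21265041-21265375), rank 140 among the optimal peaks, with 316 and 329 in the replicates (323 ± 9.08, SD, n = 2). Atg10, the enzyme that transfers ATG12, followed at 632 (chr13:91223901-91224229), with 309 and 329 (319 ± 14.7). Atg7, the activating enzyme of both conjugation systems, had a peak of 593 (chr6:114642888-114643220), with 306 and 291 (298 ± 10.9). Atg5, the acceptor of ATG12, had a peak of 493 (chr10:44268122-44268636), with 263 and 241 (252 ± 16.2). These 4 genes lay at or above the 81.1 percentile of signal among all occupied genes.

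Other conjugation genes had intermediate peaks. Atg3, the enzyme that transfers ATG8 to lipid, reached 305, with 147 in replicate 1 and 164 in replicate 2, and was the only one of the 42 genes with 3 promoter peaks in the optimal set. Atg4b, a further ATG8 protease, had 201 (106 and 95.7 in the replicates), and Atg16l1, which places the conjugation complex on membrane, had 188 (103 and 87.3). Its paralogue Atg16l2 had 66.0, with 37.7 and 34.0. The protease family thus spanned the whole range, since Atg4a and Atg4c were unoccupied. Atg4a had a relaxed peak of 8.50 in the pooled list and 4.68 in replicate 1 but none in replicate 2, and Atg4c had none in any list.

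Atg12, the ubiquitin-like protein joined to ATG5, was the least secure of the occupied genes. Its peak of 21.1 had 5.91 in replicate 1 and 13.9 in replicate 2, and it was the 1 occupied gene of the 29 without an overlapping peak in the conservative set and outside the top peaks of replicate 1. Another relaxed peak of replicate 1 in the same promoter reached 13.5.

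The ATG8 genes were occupied at 3 of 5, with a median of 68.8. Map1lc3b (LC3B) had a peak of 375 (chr8:121590175-121590502), with 183 and 194 in the replicates (189 ± 7.93, SD, n = 2). Map1lc3a (LC3A) had 68.8, with 38.6 and 30.2, and Gabarapl1 had 55.9, with 34.0 and 21.3. The values of Map1lc3b thus lay far above those of the other occupied genes of this group in both replicates. Gabarap and Gabarapl2 were unoccupied. Gabarap had a relaxed peak of 16.8 at 414 bp upstream in the pooled list, and its strongest near the start were 12.5 in replicate 1 and 9.85 in replicate 2. A summit of the conservative set and a top peak of each replicate also lay within 1000 bp of its start. Whether these belong to 1 peak was not tested. Gabarapl2 had a relaxed peak of 13.7 in the pooled list, 718 bp inside the gene, and one of 6.38 in replicate 1, 701 bp inside. The strongest of replicate 2 was 10.6, but its summit lay upstream of the start, so it is not a value of the pooled peak.

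Cargo receptors and mitophagy genes were occupied at 4 of 6 and had the highest median of any group, 472. All 6 had a CpG-rich promoter, and their share of 66.7% stands beside 63.7% of CpG-rich genes in general. Tax1bp1, a receptor for ubiquitin-tagged cargo, reached 625 (chr6:52713524-52713858), with 305 and 324 in the replicates (314 ± 13.3, SD, n = 2). Pink1, the kinase that marks damaged mitochondria, reached 548 (chr4:138326146-138326463), with 290 and 259 (274 ± 21.8). Nbr1, a receptor for protein aggregates, had 395 (chr11:101551726-101552013), with 208 and 190 (199 ± 13.3). Bnip3, a receptor on the outer mitochondrial membrane, had 178, with 108 and 69.7. Sqstm1, the gene of the best-known receptor p62, was unoccupied, with a relaxed peak of 15.2 in the pooled list, 6.40 in replicate 1 and 12.2 in replicate 2. Optn (optineurin) was unoccupied too. Its strongest relaxed peak was 14.1 in the pooled list and 13.5 in replicate 1, both with the summit 314 bp inside the gene. The strongest of replicate 2 was 3.91, with its summit 147 bp upstream.

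Of the transcription factors, Tfeb was occupied with a low peak of 37.0 (chr17:47736860-47737203), with 17.8 and 20.6 in the replicates (19.2 ± 1.94, SD, n = 2) and the summit 5 bp upstream of the start. Tfe3 was unoccupied, with a relaxed peak of 6.94 in the pooled list, 5.0 in replicate 1 and none in replicate 2. In the mm9 set the strongest peak at Tfeb lay in an intron.

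The 4 strongest genes, Atg4d, Atg10, Tax1bp1 and Wipi2, had replicate means from 310 to 323 with SDs from 9.08 to 14.7, so their order does not exceed the replicate spread. At the other end, the weakest occupied genes were Atg2b, Atg12 and Becn1, at 19.3, 21.1 and 28.6, and the strongest unoccupied ones were Ambra1, Gabarap and Sqstm1, at 24.8, 16.8 and 15.2 in the pooled relaxed list. These ranges overlap, with Ambra1 above Atg2b and Atg12. Of the 13 unoccupied genes 11 had a pooled relaxed peak near the start, with a median of 14.0. Of all unoccupied genes 36.2% had one, with a median of 8.07.

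The replicates were close at the strong peaks and less so at the weak ones. A top peak of both replicates overlapped the optimal peak at 28 of the 29 occupied genes (96.6%, against 87.9% of all occupied genes). The top peaks are the 17547 of highest signal in a replicate's own list. By those of replicate 1 alone 34 of the 42 genes were occupied, where 37.9% of all genes were, and by those of replicate 2 alone 33, where 36.6% were. The ratio of replicate 1 to replicate 2 had a median of 1.05 at the autophagy genes, where it was 1.06 over all occupied genes, and ran from 0.425 to 1.97. It was above 1 at 17 genes and below 1 at 12. The signals differed by more than 1.5 times at 5 genes: Atg13 (1.97), Gabarapl1 (1.59) and Bnip3 (1.55) were higher in replicate 1, and Atg12 (0.425) and Becn1 (0.620) in replicate 2. All 5 had a pooled signal of at most 178.

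**Figure D2:**
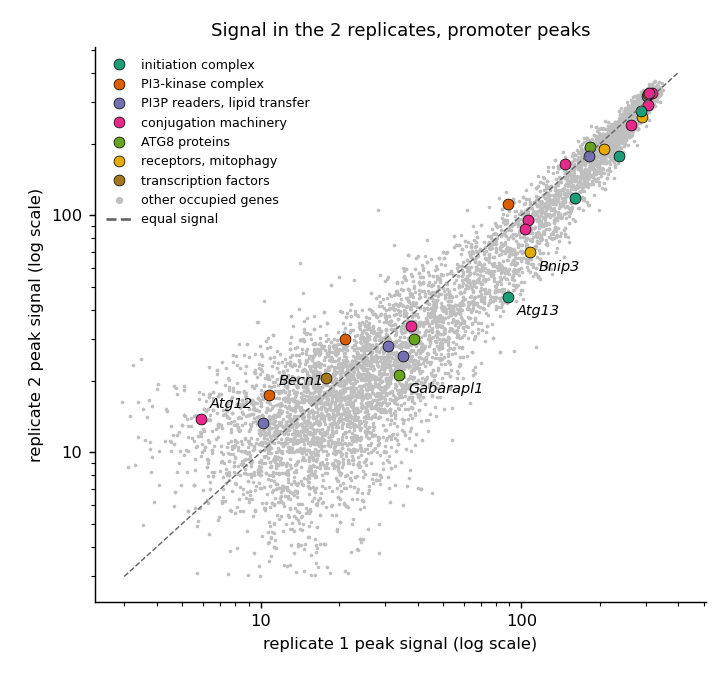
Peak signal in replicate 2 against replicate 1 (both log scale) for the occupied autophagy genes (coloured by role) and all other occupied genes (grey). The dashed line marks equal signal, and the 5 genes whose replicates differ by more than 1.5 times are named.

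NRF1 summits at autophagy genes lay close to the start. The median position was 14.0 bp upstream (-14.0), where over all occupied genes it was 2.00 bp inside the gene. The median distance in either direction was 62.0 bp, against 93 bp over all occupied genes. The summit lay within 100 bp of the start at 18 of 29 genes (62.1%, against 52.4%) and within 300 bp at 27 (93.1%, against 78.9%). It lay upstream at 17 (58.6%, against 49.1%) and downstream at 12. Atg10 was the farthest, with its summit 666 bp inside the gene as annotated, but 72 bp upstream of another RefSeq start. The summit of Ulk2 lay 279 bp inside the gene and 37 bp from another start, and that of Atg16l2 198 bp inside and 19 bp from another start. Counting every RefSeq start, 21 of the 29 summits lay within 100 bp of one. The summits of Atg9a (314 bp), Atg12 (276 bp) and Gabarapl1 (209 bp) also lay inside the gene, and those of Atg13 (-258 bp) and Nbr1 (-230 bp) upstream.

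**Figure D3:**
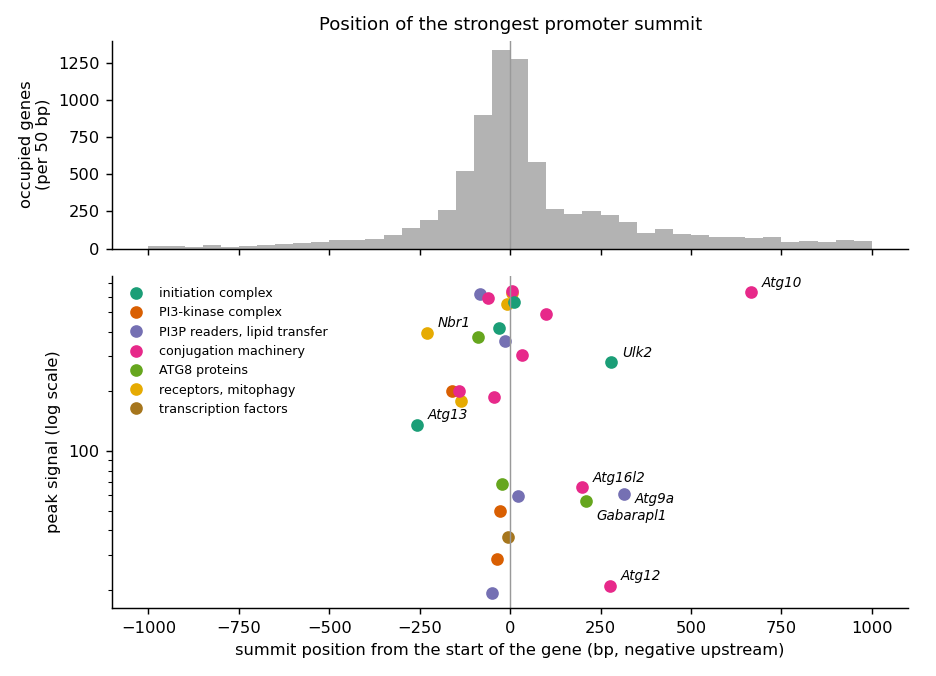
Position of the strongest promoter summit relative to the gene start (bp, negative upstream). The upper panel counts all 7838 occupied genes per 50 bp, and the lower panel shows signal (log scale) for the 29 occupied autophagy genes, of which those more than 190 bp away are named. Of the 29 summits 27 lie within 300 bp.

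Several of these peaks lay near the starts of a divergent gene pair, in a share close to that of all occupied genes. At 7 of the 29 genes (24.1%, against 24.7% of all occupied genes) the summit was also within 1000 bp of the start of another protein-coding gene, in every case on the opposite strand, so the peak cannot be assigned to 1 of the pair. At Nbr1 the summit lay 230 bp upstream of Nbr1 and 78 bp inside Brca1, the DNA repair gene, whose start is 152 bp away. The Atg13 summit lay 258 bp upstream of Atg13 and 3 bp inside Harbi1. The weak Atg2b peak lay 50 bp upstream of Atg2b and 5 bp from the start of Gskip. The other pairs were Atg3 with Slc35a5 (starts 156 bp apart), Atg4b with Thap4 (67 bp), Atg9a with Ankzf1 (150 bp) and Atg12 with Ap3s1 (30 bp). At 3 further genes the partner was not protein-coding: Atg5 with Gm40637, Gabarapl1 with 1700101I11Rik, and Atg14 with the pseudogene Gm6616. Ambra1 starts 19283 bp from the Atg13 and Harbi1 peak and shares none.

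The mm9 peak set, also made by the authors from both replicates, gave the same picture for most genes. With every GENCODE start counted, 26 of the 42 genes had a promoter peak in it (61.9%), where 35.1% of all genes did. The calls were shared at 25 genes, and 12 genes had a peak in neither set. Atg7, Becn1, Atg2b and Atg12 were occupied in the optimal set only, and Pik3c3 in the mm9 set only. Atg7 stands apart from the other 3, since its optimal peak of 593 was strong, while no mm9 peak lay within 1000 bp of any of its GENCODE starts. The nearest mm9 peak to the 5′ end of its GENCODE gene lay 203399 bp away. Whether the annotated starts differ between the builds was not tested.

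The exact NRF1 consensus was searched on both strands within 50 bp of the mm9 summits. It was found at Bnip3 and Atg9a, 2 of the 26 genes with an mm9 promoter peak, where 11.8% of 7215 genes had it. With up to 1 mismatch from the palindromic form there were 10 genes (38.5%, against 30.2%): Atg4d, Atg10, Tax1bp1, Wipi2, Pink1, Map1lc3b, Atg2a, Atg3, Bnip3 and Atg9a. The 10 genes had a median signal of 462 in the optimal set (range 61.2 to 642), and the 15 occupied genes with an mm9 peak but no such match one of 188 (37.0 to 563). Over all genes the medians were 515 with a match (1947 genes) and 65.9 without (4350). The match was searched at the mm9 summit and the signal is that of the strongest mm10 peak, so they may belong to different peaks. At Tfeb, for example, the mm9 summit lay 420 bp inside the nearest GENCODE start and the mm10 summit 5 bp upstream of the RefSeq start. Ulk1 (563) and Atg5 (493) are strong peaks with no match in this window, which says only that these letters are not there.

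The sequences shown at the start of the results place these matches against the mm10 summits. The centre of the match lay 3 bp from the summit at Tax1bp1, 4 bp at Atg4d and at Pink1, 5 bp at Atg10, 19 bp at Bnip3, 23 bp at Map1lc3b and 39 bp at Wipi2. At Atg3 the match (agcggccattGCGCAGGCGCgctcattcca, chr16:45158637-45158666, mm10) stood 211 bp from the strongest optimal summit and 5 bp from the mm9 summit. The second exact match, at Atg9a, lies in the 5′ UTR at chr1:75188280-75188309 of the NCBIM37 genome (mm9), 7 bp from the mm9 summit, shown on the strand of the gene, which is the minus strand.
Atg9a: ccaggggagcGCGCGTGCGCcggggccgcg

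RefSeq promoter windows, from 250 bp before to 50 bp after a start, were at hand for 36 of the 42 genes. The exact consensus was in 1 of them (2.78%, against 3.58% of 17274 genes), and a match with up to 1 mismatch in 9 (25%, against 9.60%). All 9 were occupied, of 24 occupied genes with a window, and 0 of the 12 unoccupied genes with a window had a match (Wilson upper limit 24.2%). For comparison, 20.8% of all occupied genes and 2.93% of all unoccupied genes had one.

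CACGTG, the element bound by TFEB and TFE3, was in the windows of 5 genes (13.9%, against 9.02% of all genes): Atg3, Atg5, Atg7, Atg14 and Bnip3. The longer form GTCACGTG, which contains CACGTG, was in those of Atg3, Atg7 and Atg14 (8.33%, against 3.22%), on either strand. Atg3 held a pair of such sites, shown because both lie between its start and the NRF1 match (chr16:45158723-45158750 and chr16:45158746-45158773, mm10, plus strand). CACGTG was in 12.5% of the windows of all occupied genes and in 6.94% of those of unoccupied genes. At Atg7 the window belongs to a start far inside the gene, with the site 27900 bp from the NRF1 summit. At Atg14 the site lay 164 bp from it.
Atg3, upstream site: gcctccttttGTCACGTGtcctgggaga
Atg3, downstream site: ggagagtcgaGTCACGTGaggccttagg

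The rest of the pathway was occupied about as often. Of 132 further genes in 6 lists, 98 had a promoter peak (74.2%, 95% Wilson interval 66.2 to 80.9, against 36.8% of all genes), with a median signal of 184. Other cargo receptors and mitophagy genes were occupied at 15 of 16. Tollip, a receptor for ubiquitin-tagged aggregates, had a peak of 522, with 255 and 271 in the replicates, and Stbd1 was unoccupied. The genes of autophagosome-lysosome fusion were occupied at 13 of 15. Stx7, an endosomal SNARE, reached 601 (296 and 306 in the replicates) and Vps11 of the tethering complexes 563, while Vamp8 and Vps39 were unoccupied.

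Other autophagosome factors were occupied at 14 of 17, with Rab1b at 613 and the WIPI family gene Wdr45b at 546, and with Tbc1d14 and Trappc11 among the unoccupied. Genes of mTORC1, AMPK and nutrient signalling were occupied at 20 of 29. Mlst8, an mTOR complex subunit, reached 613 (309 and 307 in the replicates) and Tbc1d7 of the TSC complex 608, and Fnip1 and Fnip2 were the first unoccupied genes in alphabetical order. Lysosome membrane and hydrolase genes were occupied at 20 of 30, led by the lysosomal ion channel genes Mcoln1 (647, with 317 and 332) and Tmem175 (636), with Asah1 and Cd63 unoccupied. V-ATPase subunits, which acidify the lysosome, were occupied at 16 of 25, led by Atp6v0d1 (637) and Atp6v1a (615), with Atp6ap2 and Atp6v0a4 unoccupied. The Tmem175 summit also lay 71 bp from the start of Gak, and the Atp6v1a summit 5 bp from that of Naa50. Gak and Naa50 are protein-coding genes on the opposite strand, so neither peak can be assigned to 1 gene of the pair. The shares by list ran from 64.0% (V-ATPase) to 93.8% (other receptors and mitophagy), where 36.8% of all genes were occupied. Among CpG-rich genes of these lists 80 of 98 were occupied (81.6%, against 63.7%). By list this share was 67.9% for mTORC1, AMPK and nutrient signalling (19 of 28), close to the general one, and 72.2% for lysosome genes. It was 85.7% for other autophagosome factors, 91.7% for other receptors, 93.3% for V-ATPase and 100% for fusion.

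**Figure D4:**
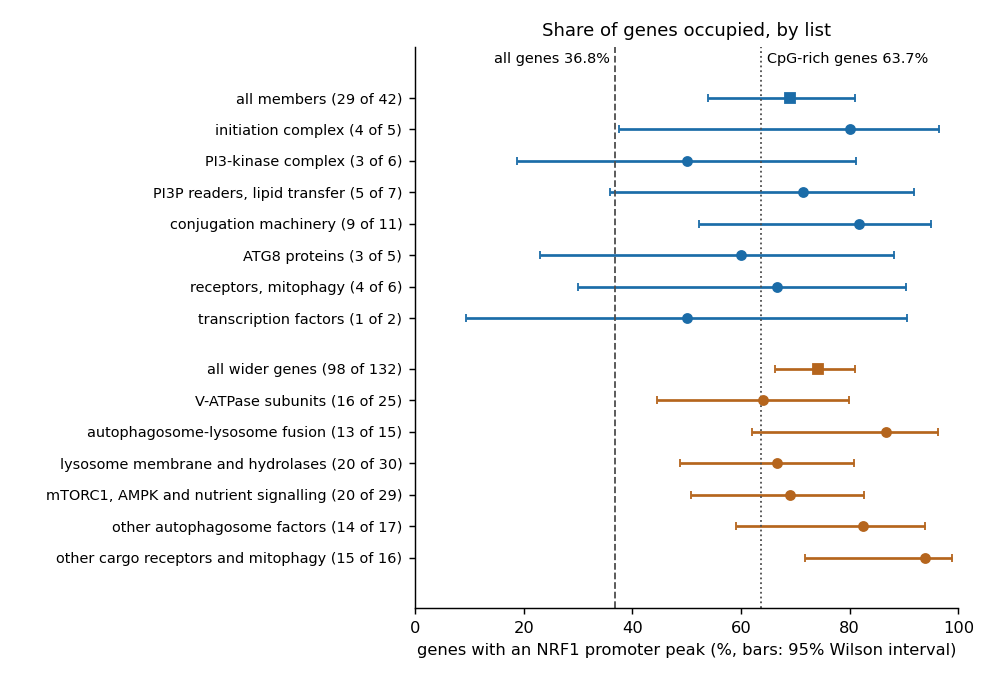
Share of genes with an NRF1 promoter peak (%) in the autophagy genes and their role groups (blue) and in the wider pathway lists (brown). Bars are 95% Wilson intervals, and vertical lines mark all genes (36.8%) and CpG-rich genes (63.7%). The interval of the 42 autophagy genes, 54.0 to 80.9, contains the CpG-rich share, but only 33 of the 42 are CpG-rich (26 occupied, 78.8%).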

How the data were processed

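Per the text files that accompany the deposited peak lists, the authors called a relaxed list of peaks and background on mm10 from either replicate and from both pooled, and selected conservative and optimal sets by irreproducible discovery rate; an mm9 set was made from both replicates. The aligner, caller and read numbers were not stated there, and the depth is unknown. The deposited signal value has no stated scaling and was compared within a list only. The deposited rank score only described peaks.

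Genes and starts came from RefSeq (GRCm38.p6): the 5′ end of the gene, with the strand from the RefSeq promoter table (36 of the 42 autophagy genes) or from GENCODE vM1 by name (6). Of 21631 protein-coding genes, 313 without a strand were left out. CpG content, GENCODE starts and summit motifs used NCBIM37 (mm9), and no coordinate was converted between builds. A gene with several promoter peaks took the strongest, and its replicate values are those of the relaxed peak overlapping it by at least 1 bp. For an unoccupied gene, each relaxed list gave its own strongest peak within 1000 bp of the start. Those values need not belong to 1 peak. Python 3.11.15, pandas 2.3.3 and numpy 2.4.6 were used, and the promoter call was tested on simulated data.

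The genes and lists were chosen with earlier results of these data known. Every autophagy gene is named, with positions for the strongest, the best of each role group and the weakest; of each wider list, the 2 strongest occupied and the first 2 unoccupied in alphabetical order; 1 gene that this rule names is not reported here. Alternatives were other peak sets, windows, starts, single replicates and motif definitions. Some of these (every RefSeq start, strand from GENCODE only, summit offsets in single replicates) were chosen after seeing the data.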

Additional observations from a re-analysis of the deposited data

How the results depend on the processing

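The number of occupied autophagy genes stayed between 25 and 34 under the alternatives that keep all 42 genes. Their share is given against that of all genes under the same setting. The count was 30 in the conservative set (71.4% against 35.5%) and 25 in the upper 50% by signal (59.5% against 26.9%). It was 28 within 500 bp (66.7% against 33.7%) and 29 within 2000 bp (69.0% against 39.2%). In the mm9 set it was 26 (61.9% against 35.1%). Without replicate 1 it was 33 (78.6% against 36.6%), and without replicate 2 it was 34 (81.0% against 37.9%). A strict symbol rule (Atg and a number with nothing after it) left 32 genes, of which 22 were occupied (68.8%, against 36.8% of all genes). The call held in all 8 alternatives tried per gene at 28 of the 42 genes (23 occupied, 5 unoccupied). Ambra1, Gabarap and Atg12 changed in 3 alternatives, and Atg2b and Becn1 in 2. The median signal of 201 became 112 without replicate 1 and 108 without replicate 2, on the replicate lists' own scales. The median summit position of -14.0 bp became -22.0 without replicate 1 and -13.0 without replicate 2. The 2 genes with the exact NRF1 consensus became 10 with up to 1 mismatch. No paired analysis was possible because there is 1 group. Depth is unknown, and intervals cover counting error only.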

Other observations

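The V-ATPase subunits were occupied at 16 of 25 genes (64.0%, against 36.8% of all genes). Several subunits have paralogous genes, whose values are given side by side here. They were chosen after the values were seen, and no test was run. Atp6v0d1 had a peak of 637 (311 and 330 in the replicates) and Atp6v0d2 none, Atp6v1e1 had 528 (270 and 260) and Atp6v1e2 none, and Atp6v1b2 had 487 (238 and 255) and Atp6v1b1 none. Atp6v1g1 had 348 (164 and 188), Atp6v1g2 had 108 (57.8 and 49.9) and Atp6v1g3 none, and Atp6v1c1 had 310 (175 and 136) and Atp6v1c2 none. Weaker peaks stood at Atp6v0e (94.8), Atp6v0a1 (83.0) and Atp6v0a2 (28.7, with 23.5 and 3.87), and none at Atp6v0e2, Atp6v0a4 and Tcirg1. CpG content moved with the call: the promoters of Atp6v0d1, Atp6v1e1, Atp6v1b2, Atp6v1g1 and Atp6v1c1 were CpG-rich and those of their unoccupied paralogues CpG-poor, and the part of CpG content in the result was not tested. Atp6v1g2 was CpG-poor and occupied, with its summit 918 bp from its own start and 63 bp from that of Nfkbil1.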
